A study of Mus musculus with 18 samples.

Results

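The genes described here encode receptors with which myeloid cells, the neutrophils, monocytes and macrophages of innate immunity, sense microbial products and material released by damaged cells. The set was Clec4e, Clec4d, Clec7a, Trem1, Tlr2, Tlr4, Cd14, Fpr1, Fpr2 and Nlrp3, 10 genes chosen with earlier results of these data known. A gene was taken to be measured by a probe set (the group of array probes summarised into a value per gene) that carried its symbol and no other. That gave 8 of the 10 genes, with 1 probe set each, among 21640 probe sets with exactly 1 gene symbol and 34760 in the whole table. Fpr1 and Fpr2, receptors for formylated peptides, had no such probe set and were not analysed here.

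The tissue was dura mater, the tough outer covering of the brain. It came from 18 mice, all male and 17 to 21 weeks old, each hybridised to its own Affymetrix array, with 3 in each of 6 groups. Engrafted mice were of strain WBB6F1-KitW/W-v and had been given mast cells by vein 8 to 10 weeks before, deficient mice were of the same strain without engraftment and lack mast cells, and wild-type mice were WBB6F1-Kit+/+. Engrafted and deficient mice share the Kit alleles of their strain in the cells of the host, so each differs from wild type by more than mast cells. In each category, stroke mice had the middle cerebral artery closed with a filament for 30 minutes and were studied at day 2, and naive mice of matched age had no operation. Sham-operated mice were not analysed here, so surgery is part of every contrast of stroke with naive dura. The design sets stroke against naive tissue within each mast cell category.

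These receptors feed a few shared pathways. The C-type lectin receptor Clec4e (Mincle) binds glycolipids of fungi and mycobacteria and a nuclear protein of dead cells, Clec4d is its partner, and Clec7a (Dectin-1) binds fungal beta-glucan; they signal through the kinase Syk and the adaptor Card9. Trem1 is carried by neutrophils and monocytes, pairs with the adaptor Tyrobp and amplifies inflammatory signals. Tlr4 senses bacterial lipopolysaccharide with the help of Cd14, Tlr2 senses lipoproteins, and their signals reach NF-kappaB through the adaptor Myd88. Nlrp3 is the cytoplasmic sensor of an inflammasome, the complex that activates the protease Casp1 and so the cytokine Il1b.

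Values are log2 levels as deposited, and a level of 1 gene cannot be set against that of another. Medians per array were 7.77 to 7.91, lower quartiles 6.09 to 6.23, and r within groups 0.985 to 0.995. The summed level of 8 mast cell markers was 11.43 to 11.68 in stroke engrafted and 10.76 to 12.57 in naive engrafted dura, 9.24 to 9.38 and 9.16 to 9.24 in the deficient groups, and 10.81 to 11.32 and 11.37 to 11.76 in the wild-type groups. The dural fibroblast genes Col1a1, Dcn and Lum averaged 12.26, 13.23 and 12.20. In 5 arrays Ttr, a gene of the choroid plexus, was at 9.03 to 10.17, against 13.03 to 13.78 in the other arrays. These were stroke wild-type array 2, stroke deficient array 2, naive deficient arrays 1 and 3 and naive engrafted array 3. In whole tissue, a change in the number of cells of a type and a change in RNA per cell cannot be told apart.

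In wild-type dura 4 of the 8 receptor genes were higher after stroke. Clec4e, Clec4d, Trem1 and Cd14 rose, 0 fell, and Clec7a, Tlr2, Tlr4 and Nlrp3 did not pass. Calls here are from limma with Benjamini-Hochberg adjustment over all 21640 probe sets, at an adjusted p under 0.05. Of all probe sets, 6.24% rose in this comparison, 4.63% fell and 10.9% changed in either direction. The median difference over the 8 genes was 0.37, beside 0.01 over all probe sets. In each of the 4 genes every stroke array lay above every naive array, which held for 15.8% of all probe sets.

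Clec4e (probe set 10547664) had log2 levels of 7.12, 6.96 and 7.23 in stroke wild-type dura, against 5.87, 5.78 and 6.10 in naive wild-type dura. The groups were clearly apart, and the difference was 1.19 ± 0.19 (log2, SE, n = 3 each), 2.28-fold, with a limma adjusted p of 0.000881. All 3 naive levels were under the lower quartile of their own array, where signal may be background. This size may therefore be an underestimate, which was not tested. Clec4d (probe set 10541614), the neighbour of Clec4e on chromosome 6, had levels of 7.32, 7.28 and 7.49 after stroke and 6.60, 6.38 and 6.86 in naive dura. Its rise was 0.75 ± 0.15 (1.68-fold, limma adjusted p = 0.00448). With scores of choroid plexus and neuron genes as covariates the rise of Clec4d was 0.64 and no longer passed (limma adjusted p = 0.0674).

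Trem1 (probe set 10445746) had levels of 6.53, 6.39 and 6.65 in stroke wild-type dura and 5.81, 5.95 and 5.92 in naive wild-type dura. The naive levels again lay below the lower quartile of each array, so the rise of 0.63 ± 0.11 (1.55-fold, limma adjusted p = 0.0023) may be an underestimate. Cd14 (probe set 10458382), the co-receptor that hands lipopolysaccharide to Tlr4, had levels of 9.32, 9.34 and 9.31 after stroke, an SD of 0.02, against 8.63, 8.57 and 8.37 in naive dura. It rose by 0.80 ± 0.12 (1.74-fold, limma adjusted p = 0.000511). The 4 calls held in each of the fits that left out 1 of the 18 arrays, with limma adjusted p of at most 0.0271.

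The promoter sequences of Clec4e, Clec4d and Trem1 are shown because these genes rose together, and that of Tlr2 because it did not pass. That of Cd14 is not shown or searched here. Each runs from 250 bases before to 50 bases after the gene's annotated start, 5′ to 3′ on the gene's strand, from RefSeq on GRCm38.p6, the C57BL/6J genome and not that of the mice studied. Clec4e lies at chr6:123289822-123290121 on the minus strand, Clec4d at chr6:123261857-123262156 on the plus strand, Trem1 at chr17:48232489-48232788 on the plus strand and Tlr2 at chr3:83841559-83841858 on the minus strand. Capitals mark matches on either strand to the core of PU.1 (GAGGAA), AP-1 (TGANTCA) or C/EBP (TTGCNNAA) sites or to the NF-kappaB consensus (GGGRNNYYCC). N is any base, R is A or G, and Y is C or T. PU.1 is a transcription factor of myeloid cells.
Clec4e: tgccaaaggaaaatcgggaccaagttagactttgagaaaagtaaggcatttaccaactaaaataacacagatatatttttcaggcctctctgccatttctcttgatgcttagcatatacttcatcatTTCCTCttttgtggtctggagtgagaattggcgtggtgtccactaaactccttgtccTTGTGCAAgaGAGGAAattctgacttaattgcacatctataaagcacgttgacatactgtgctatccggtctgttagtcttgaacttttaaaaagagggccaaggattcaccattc
Clec4d: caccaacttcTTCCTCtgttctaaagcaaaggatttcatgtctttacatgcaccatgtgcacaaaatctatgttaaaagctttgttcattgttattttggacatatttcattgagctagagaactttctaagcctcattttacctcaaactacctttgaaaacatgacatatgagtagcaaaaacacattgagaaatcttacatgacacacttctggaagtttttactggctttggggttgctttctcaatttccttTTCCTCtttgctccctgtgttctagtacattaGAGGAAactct
Trem1: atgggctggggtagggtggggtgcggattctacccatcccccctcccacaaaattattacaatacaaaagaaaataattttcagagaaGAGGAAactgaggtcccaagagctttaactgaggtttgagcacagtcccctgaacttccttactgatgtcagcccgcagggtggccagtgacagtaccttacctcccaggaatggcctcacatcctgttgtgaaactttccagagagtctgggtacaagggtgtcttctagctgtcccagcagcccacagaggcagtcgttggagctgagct
Tlr2: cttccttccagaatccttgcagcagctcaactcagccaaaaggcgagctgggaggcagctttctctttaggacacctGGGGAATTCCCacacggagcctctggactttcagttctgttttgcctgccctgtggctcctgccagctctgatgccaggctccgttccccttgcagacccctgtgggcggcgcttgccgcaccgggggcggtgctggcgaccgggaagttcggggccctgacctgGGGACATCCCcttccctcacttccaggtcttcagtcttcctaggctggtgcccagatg

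In these windows Clec4e held 2 PU.1 cores and 1 C/EBP match, Clec4d 3 PU.1 cores, Trem1 1 PU.1 core, and Tlr2 matches to NF-kappaB in 2 stretches, the first of them made of overlapping matches. No matches of different motifs overlapped. The PU.1 core was present in 28.3% of 27025 RefSeq promoters of that length, C/EBP in 10.8%, NF-kappaB in 8.18% and AP-1 in 7.93%. The NF-kappaB consensus was chosen after a narrower form had been seen to match in Tlr2, so its share is no test of the Tlr2 matches. The promoter at the first listed start of Nlrp3, whose gene did not pass in any comparison, held 3 PU.1 cores, and that of Clec7a, which did not pass in wild type, 1. The promoter of Fpr2, which had no probe set, also held a PU.1 core. Tlr4 had no listed promoter and was not searched. A match describes letters and does not show a bound site.

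The Toll-like receptors and Nlrp3 stood apart from that pattern. Tlr2 (probe set 10498992) had levels of 8.52, 8.42 and 8.57 in stroke wild-type dura and 8.59, 8.90 and 8.34 in naive wild-type dura, a difference of -0.11 with a 95% interval of -0.35 to 0.13. Tlr4 (probe set 10505517) had 9.62, 9.38 and 9.49 after stroke and 9.58, 9.52 and 9.25 in naive dura, with a difference of 0.04 (-0.24 to 0.33). For Nlrp3 (probe set 10376513) the levels were 6.78, 6.66 and 6.68 after stroke and 6.64, 6.83 and 6.41 in naive dura, a difference of 0.08 (-0.12 to 0.28). Stroke and naive arrays overlapped in all 3 genes, and limma adjusted p were 0.599, 0.873 and 0.644. The intervals leave room for changes of up to about 0.35 on the log2 scale either way. Clec7a (probe set 10548375) also overlapped, with 7.98, 7.79 and 8.01 in stroke wild-type dura and 7.77, 8.05 and 7.64 in naive wild-type dura.

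**Figure D1:**
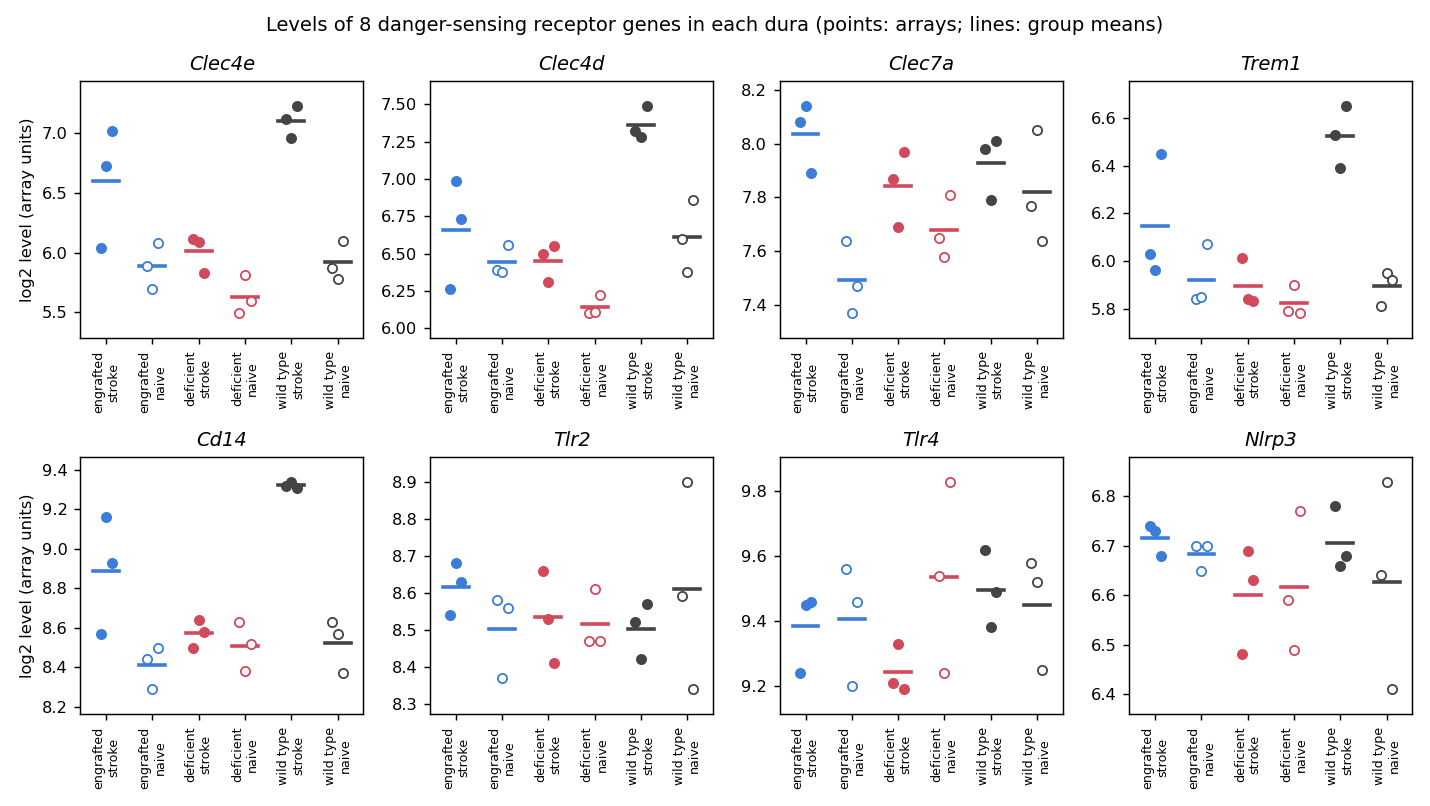
Log2 level (array units) of each of the 8 measured receptor genes in every dura; filled points are stroke and open points naive arrays, lines are group means, and each panel has its own scale that does not start at 0. In Clec4e, Clec4d, Trem1 and Cd14 the 3 stroke wild-type arrays lie above all naive arrays, whereas in Tlr2, Tlr4 and Nlrp3 the wild-type groups overlap.

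In mast cell-deficient dura none of the 8 genes passed after stroke, where 0.25% of all probe sets did, and 1 of the 8 (Tlr4) had an unadjusted p under 0.05, as did 13.5% of all probe sets. Clec4e had levels of 6.11, 6.09 and 5.83 in stroke deficient dura and 5.49, 5.81 and 5.59 in naive deficient dura, with naive levels the lower. Clec4d had 6.50, 6.31 and 6.55 in stroke deficient dura and 6.10, 6.11 and 6.22 in naive deficient dura. Stroke arrays lay just above naive arrays in these 2 genes, as in 13.7% of all probe sets. The differences were 0.38 (95% interval -0.02 to 0.78) for Clec4e and 0.31 (-0.01 to 0.63) for Clec4d. Every Clec4e array of either deficient group was below its own array's lower quartile, as was every Trem1 array, so changes there may be larger than they appear.

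Cd14 and Trem1 were near level between the deficient groups. Cd14 had levels of 8.50, 8.64 and 8.58 in stroke deficient dura and 8.63, 8.38 and 8.52 in naive deficient dura, a difference of 0.06 with an interval of -0.19 to 0.31. Trem1 had 6.01, 5.84 and 5.83 after stroke and 5.79, 5.90 and 5.78 in naive dura, a difference of 0.07 (-0.17 to 0.31). Stroke and naive arrays overlapped in both. Tlr4 had 9.21, 9.33 and 9.19 after stroke and 9.54, 9.24 and 9.83 in naive dura, a difference of -0.30 (-0.58 to -0.01, limma adjusted p = 0.358), while Tlr2, Clec7a and Nlrp3 differed by 0.02, 0.17 and -0.01. With array weights Clec4e passed at 0.53 (limma adjusted p = 0.0446).

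Engrafted dura gave a different single call. Clec7a, the beta-glucan receptor, had levels of 8.08, 8.14 and 7.89 in stroke engrafted dura and 7.64, 7.37 and 7.47 in naive engrafted dura, with no overlap. It rose by 0.54 ± 0.11 (1.45-fold, limma adjusted p = 0.0335), 1 of 8 genes where 0.878% of all probe sets rose, 0.236% fell and 1.11% changed. Clec7a and Cd14 were the genes with stroke arrays wholly above naive arrays, as in 8.89% of all probe sets. The call was fragile: it was lost without any 1 of the 6 engrafted arrays (limma adjusted p up to 0.192) and in 10 of 27 alternatives, among them the fit without the 5 arrays lowest in Ttr (limma adjusted p = 0.104), with a difference of 0.48 to 0.61 when 1 array was left out. Naive engrafted dura was also the group with the lowest Clec7a mean, 7.49 ± 0.13, against 7.68 ± 0.12 in naive deficient and 7.82 ± 0.21 in naive wild-type dura (SD, n = 3 each).

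The 4 genes that rose in wild type were uneven among the stroke engrafted arrays. Clec4e had levels of 6.04, 6.73 and 7.02 in stroke engrafted dura, against 5.89, 5.69 and 6.08 in naive engrafted dura, so array 1 lay among the naive levels and the others above them. Cd14 had 8.57, 9.16 and 8.93 in stroke engrafted dura against 8.44, 8.29 and 8.50 in naive engrafted dura, and again array 1 was lowest. The differences were 0.71 (95% interval 0.31 to 1.11, limma adjusted p = 0.0908) for Clec4e and 0.48 (0.23 to 0.73, limma adjusted p = 0.0659) for Cd14. Without stroke engrafted array 1 both passed, at 0.99 and 0.64 (limma adjusted p = 0.00285 and 0.00479), and Cd14 passed with the covariates too (0.48, limma adjusted p = 0.0253). Clec4d had 6.26, 6.99 and 6.73 in stroke engrafted and 6.39, 6.38 and 6.56 in naive engrafted dura. Trem1 had 6.03, 5.96 and 6.45 in stroke engrafted and 5.84, 5.85 and 6.07 in naive engrafted dura. The groups overlapped in both genes, with differences of 0.22 and 0.23. Tlr2, Tlr4 and Nlrp3 differed by 0.11, -0.02 and 0.04.

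Averaged over the 3 categories, 5 of the 8 genes rose with stroke and 0 fell, beside 8.05% of all probe sets that rose, 5.42% that fell and 13.5% called in either direction. The average differences were 0.76 ± 0.11 for Clec4e, 0.45 ± 0.07 for Cd14, 0.43 ± 0.09 for Clec4d, 0.31 ± 0.07 for Trem1 and 0.27 ± 0.07 for Clec7a (limma adjusted p = 0.000261, 0.000462, 0.00389, 0.00529 and 0.013). The Clec7a call was lost with the choroid plexus and neuron covariates (0.16, limma adjusted p = 0.146). Tlr2, Tlr4 and Nlrp3 lay between -0.09 and 0.03 on average, and their 95% intervals between -0.26 and 0.15.

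**Figure D2:**
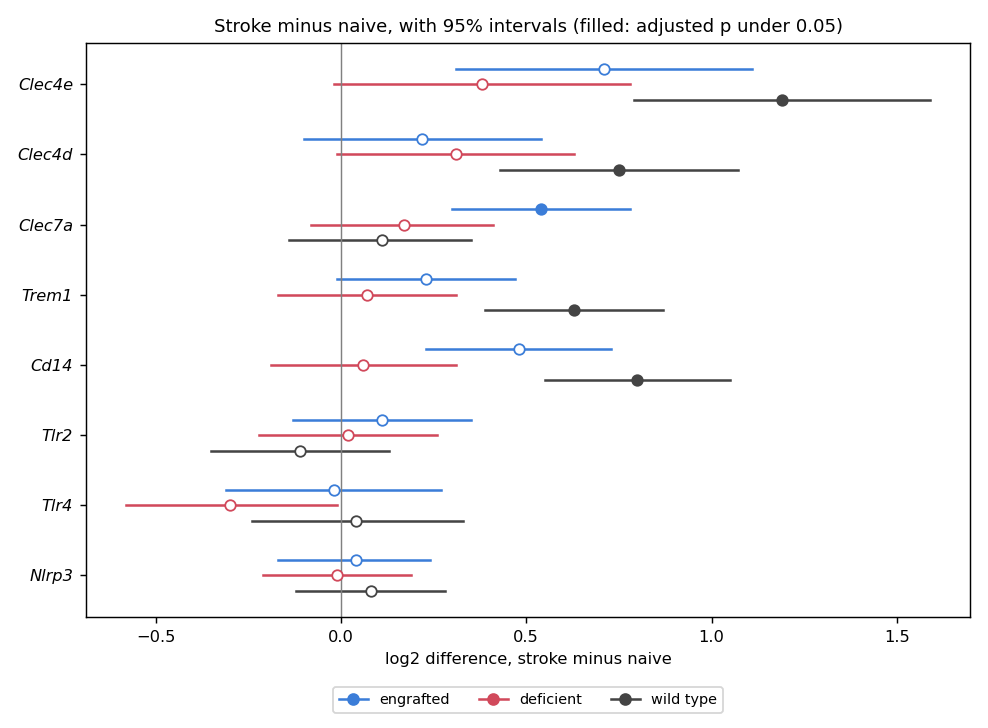
Log2 difference, stroke minus naive, of each receptor gene in engrafted, deficient and wild-type dura; points are limma estimates, bars 95% intervals, and filled points have an adjusted p under 0.05. The wild-type estimates of Clec4e (1.19), Cd14 (0.80), Clec4d (0.75) and Trem1 (0.63) are filled, 0 of 8 are filled in deficient dura, and Clec7a (0.54) is filled in engrafted dura.

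The comparison of deficient with wild-type dura after stroke asked whether receptor levels differ in mice that lack mast cells. These mice also differ from wild type in their Kit alleles, and the comparison cannot tell these apart. The same 4 genes were lower in deficient dura, Clec4e by -1.09 ± 0.19, Clec4d by -0.91 ± 0.15, Cd14 by -0.75 ± 0.12 and Trem1 by -0.63 ± 0.11 (log2, SE, limma adjusted p = 0.00548, 0.00393, 0.0028 and 0.00697). Of all probe sets, 1.97% were lower and 2.61% differed in either direction. No deficient array of these genes reached any wild-type array, as was the case for Tlr4 too and for 9.98% of all probe sets. This comparison shares the stroke wild-type arrays with the stroke response above, so the overlap of genes is not a separate result. Clec4e and Trem1 were below the lower quartile of every stroke deficient array, so their sizes may be underestimates.

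The 4 calls held without any single array (limma adjusted p at most 0.0423). Without the 5 arrays lowest in Ttr, which leaves 2 stroke arrays in each of these groups, the differences were -1.20, -0.88, -0.78 and -0.67 for Clec4e, Clec4d, Cd14 and Trem1, about as large, and 0 of 8 passed (limma adjusted p = 0.0721, 0.104, 0.0721 and 0.0842). Tlr4 differed by -0.25 (95% interval -0.54 to 0.03), and Clec7a, Nlrp3 and Tlr2 by -0.08, -0.11 and 0.03.

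Engrafted dura after stroke lay between the other categories in Clec4e, Clec4d, Trem1 and Cd14, with no call in either direction. Against deficient dura the differences were 0.59 (95% interval 0.19 to 0.99) for Clec4e, 0.32 (0.07 to 0.57) for Cd14, 0.25 (0.01 to 0.49) for Trem1 and 0.21 (-0.11 to 0.53) for Clec4d. All 8 genes were above 0 in that comparison, from 0.08 upward, but engrafted and deficient arrays overlapped in each of the 8. The limma adjusted p were at least 0.749, and 0.0277% of all probe sets passed. The share of all probe sets above 0 was not counted, and their median was -0.02. The 8 differences come from the same arrays and are not separate results. Against wild type the differences were -0.70 (-1.02 to -0.39) for Clec4d, -0.50 (-0.90 to -0.10) for Clec4e, -0.44 (-0.69 to -0.18) for Cd14 and -0.37 (-0.62 to -0.13) for Trem1. Clec4d came closest to the threshold (limma adjusted p = 0.0567), in a comparison where 0.411% passed. Clec4d and Cd14 arrays of engrafted dura lay wholly below those of wild type, as did 7.78% of all probe sets. Which engrafted array is included decides these values: without array 1 Clec4e was higher than in deficient dura by 0.87 (limma adjusted p = 0.0221). Without array 2, Clec4d and Cd14 were lower than in wild type by -0.87 and -0.57 (0.01 and 0.0204), and without array 3 Trem1 was, by -0.53 (0.0403).

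**Figure D3:**
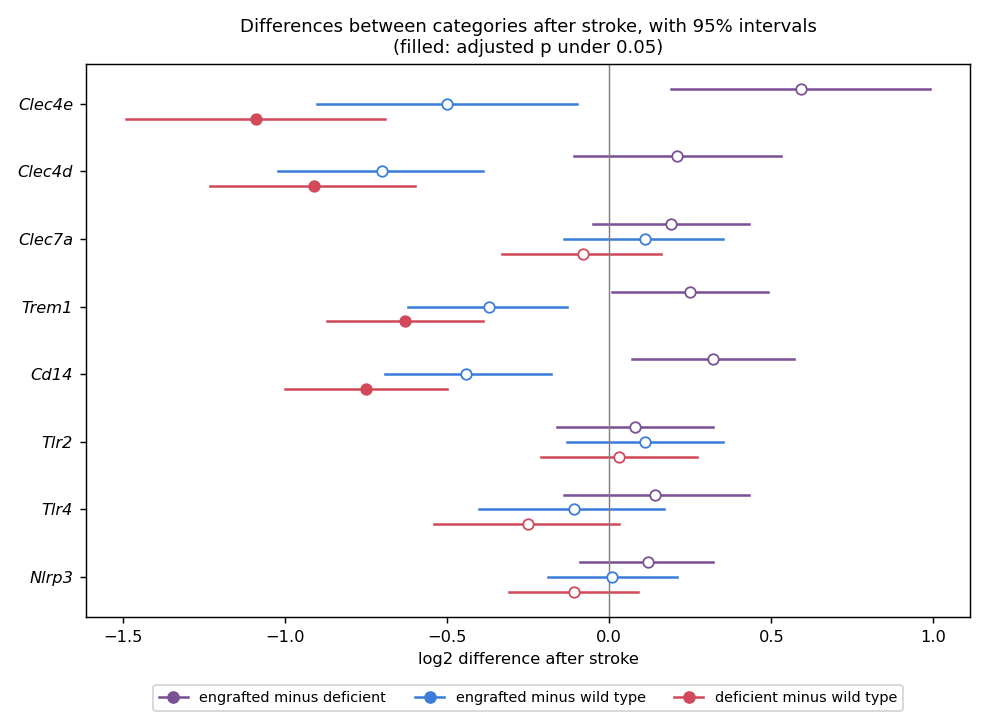
Log2 differences between categories after stroke for each receptor gene, as engrafted minus deficient, engrafted minus wild type and deficient minus wild type; points are limma estimates, bars 95% intervals, filled points have an adjusted p under 0.05. Clec4e, Clec4d, Trem1 and Cd14 are filled and below 0 for deficient minus wild type (-1.09, -0.91, -0.63 and -0.75), and no point is filled in either engrafted comparison.

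The order of the group means was alike in Clec4e and Cd14: stroke wild type, stroke engrafted, stroke deficient, then the 3 naive groups. In Clec4e every pair of neighbours in that order overlapped, whereas in Cd14 and Clec4d the stroke wild-type arrays lay wholly above the stroke engrafted arrays. Clec4d was lowest in naive deficient dura, whose arrays lay below those of every other group. The share of all probe sets with that pattern was not counted. Against naive wild type alone, 6.77% of all probe sets lay wholly below in naive deficient dura. Of the 3 naive deficient Clec4d levels, 2 were under the lower quartile of their own array.

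Whether the stroke response itself differed between categories was tested as an interaction. None of the 8 genes passed in any of the 3 interactions, where 0.351%, 0.00462% and 0.106% of all probe sets passed for deficient minus wild type, engrafted minus deficient and engrafted minus wild type. For deficient minus wild type, Cd14 had the smallest p, with a difference of -0.74 ± 0.17 (95% interval -1.09 to -0.38, limma adjusted p = 0.0879). Clec4e stood at -0.81 ± 0.27 and Trem1 at -0.56 ± 0.16 (limma adjusted p = 0.355 and 0.241), and 3 of the 8 genes had an unadjusted p under 0.05, as did 7.35% of all probe sets. Cd14 passed with only the 4 compared groups in the fit (limma adjusted p = 0.0319), without stroke engrafted array 1 or 2 (0.0152 and 0.034) and with array weights (0.0125). With array weights Trem1 passed too (0.0413). For engrafted minus wild type, Clec7a pointed up (0.43 ± 0.16) and Clec4d and Trem1 down (-0.53 ± 0.21 and -0.40 ± 0.16), with limma adjusted p of 0.282, 0.31 and 0.309.

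In naive dura 0 of the 8 genes passed between any categories, where 0.0185% of probe sets passed for deficient minus wild type and for engrafted minus deficient and 0% for engrafted minus wild type. The unadjusted p was under 0.05 for Clec4d, lower in deficient than in wild-type dura (-0.47 ± 0.15, 95% interval -0.79 to -0.15, limma adjusted p = 0.627), as it was for 6.82% of all probe sets. The same held for Clec7a, lower in engrafted than in wild-type dura (-0.33 ± 0.11, -0.57 to -0.08, limma adjusted p = 0.17), where 19.1% of all probe sets had such a p. Differences of all 8 genes lay between -0.47 and 0.30 in these comparisons.

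Genes that work with these receptors were described in lists chosen with results of these data known. Of all probe sets, 6.24% rose and 4.63% fell with stroke in wild-type dura. Of 8 genes of the C-type lectin and Trem adaptor list, 2 rose and 0 fell with stroke in wild-type dura, with a list median of 0.08. They were Tyrobp, the adaptor of Trem1 (0.39 ± 0.10, limma adjusted p = 0.0231), and Fcer1g, the adaptor through which Clec4e signals (0.34 ± 0.10, limma adjusted p = 0.049). The call of Fcer1g was lost in 20 of 27 alternatives and that of Tyrobp in 6. Syk and Card9, which act downstream, stood at -0.06 ± 0.15 and -0.04 ± 0.11. On average over the categories Plcg2, a phospholipase of the same pathway, also passed (0.24 ± 0.07, limma adjusted p = 0.0436), a call lost in 14 of 26 alternatives.

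Of 10 measured partners of the Toll-like receptors 3 rose and 0 fell with stroke in wild type, with a list median of 0.16. Among all probe sets 6.24% rose and 4.63% fell there. In engrafted and deficient dura 0 of the 10 passed, where 1.11% and 0.25% of all probe sets did. Myd88, the adaptor shared by most Toll-like receptors, rose by 0.68 ± 0.09 (limma adjusted p = 0.000139), Tirap, which brings Myd88 to Tlr2 and Tlr4, by 0.63 ± 0.10 (0.00099), and the kinase Irak1 by 0.33 ± 0.09 (0.0226). The calls of Myd88 and Tirap held in all 27 alternatives and that of Irak1 was lost in 5. Ly96, the protein that binds lipopolysaccharide on Tlr4, stood at 0.04 ± 0.20. After stroke Myd88 was lower in deficient than in wild-type dura (-0.42 ± 0.09, limma adjusted p = 0.0149), a call lost in 6 alternatives, 4 of them fits without 1 array. On average Irak3, an inhibitor of this pathway, rose (0.25 ± 0.06) and the kinase Irak2 fell (-0.15 ± 0.04), with limma adjusted p of 0.00858 and 0.0111. The call of Irak2 was lost without the arrays low in Ttr (limma adjusted p = 0.13).

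In the inflammasome list 2 of 8 genes rose and 1 fell with stroke in wild type. The shares of all probe sets were 6.24% and 4.63%. Casp4, a sensor of intracellular lipopolysaccharide, rose by 0.70 ± 0.16 and Pycard, the adaptor that joins Nlrp3 to Casp1, by 0.32 ± 0.08, and the cytokine Il18 was lower (-0.39 ± 0.12), with limma adjusted p of 0.00914, 0.0256 and 0.0453. The calls of Pycard and Il18 were lost without some single arrays, 4 and 10 of the 18, and without the arrays low in Ttr (limma adjusted p = 0.11 and 0.0508). With the covariates Casp4 (0.50, limma adjusted p = 0.136) and Pycard (0.19, limma adjusted p = 0.279) did not pass. Il1b stood at 0.30 ± 0.21 and Casp1 at -0.13 ± 0.21 (limma adjusted p = 0.393 and 0.752). Pycard rose in engrafted dura too (0.41 ± 0.08, limma adjusted p = 0.0302), a call lost in 8 alternatives. In deficient dura 0 of 8 passed, where 0.25% of all probe sets did. Casp4 was lower in deficient than in wild-type dura after stroke (-0.61 ± 0.16, limma adjusted p = 0.0487), a call lost in 17 of 27 alternatives.

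Of 6 measured NF-kappaB genes 2 rose and 0 fell in wild type, beside 6.24% and 4.63% of all probe sets. Nfkb2 rose by 0.44 ± 0.11 and Nfkbiz by 0.34 ± 0.09 (limma adjusted p = 0.0134 and 0.0269). These calls were lost without 3 and 5 of the single arrays. With the covariates neither passed, with differences of 0.19 and 0.27 (limma adjusted p = 0.248 and 0.159). Other danger receptors rose in 4 of 21 cases in wild type, with 0 lower, beside the same shares of all probe sets. Msr1, a scavenger receptor of macrophages, rose by 1.12 ± 0.14, Clec5a, a lectin receptor of myeloid cells, by 0.90 ± 0.20, Tlr13, which senses bacterial ribosomal RNA, by 0.79 ± 0.15 and Trem2, a lipid receptor of macrophages, by 0.44 ± 0.09 (limma adjusted p = 0.000158, 0.00795, 0.00309 and 0.00649). With the covariates Clec5a and Tlr13 no longer passed (0.73 and 0.60, limma adjusted p = 0.0651 and 0.058), nor did Trem2 without the arrays low in Ttr (0.39, limma adjusted p = 0.0555). In engrafted dura 4 of the 21 rose, where 0.878% of all probe sets did. Among the 4 were Clec5a (1.17 ± 0.20), Msr1 (0.75 ± 0.14) and Tlr13 (0.75 ± 0.15), with limma adjusted p of 0.00919, 0.0204 and 0.0237. Each of these calls was lost without at least 3 of the single arrays. Msr1 and Tlr13 also did not pass there without the arrays low in Ttr (limma adjusted p = 0.0555 and 0.0796). The other was Tlr1, the partner of Tlr2 (0.52 ± 0.12, limma adjusted p = 0.0424), a call lost in 17 of 27 alternatives. Msr1 was lower in deficient than in wild-type dura after stroke (-0.77 ± 0.14, limma adjusted p = 0.00922), a call lost without stroke deficient array 3 (limma adjusted p = 0.058) or the arrays low in Ttr (0.0941). Clec4n (Dectin-2), which lies beside Clec4d on chromosome 6, stood at -0.10 ± 0.20.

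Of 10 genes for ligands of these receptors 2 rose and 0 fell in wild type, beside 6.24% and 4.63% of all probe sets. Saa3, an acute-phase protein, rose by 1.32 ± 0.29 and Anxa1, a ligand of formyl peptide receptors, by 0.91 ± 0.14 (limma adjusted p = 0.00931 and 0.00079). Saa3 did not pass without the arrays low in Ttr (1.09, limma adjusted p = 0.0847) or with the covariates (1.13, limma adjusted p = 0.0875). In engrafted dura 3 of the 10 rose, where 0.878% of all probe sets did. Saa3 rose by 1.60 ± 0.29, Pglyrp1, a ligand of Trem1, by 0.92 ± 0.18 and Anxa1 by 0.65 ± 0.14 (limma adjusted p = 0.0152, 0.0242 and 0.04). Each call depended on 3 to 9 single arrays, and Saa3 did not pass there without the arrays low in Ttr (limma adjusted p = 0.0705). Anxa1 was lower in deficient than in wild-type dura after stroke (-0.69 ± 0.14, limma adjusted p = 0.0158), a call lost in 7 alternatives. The alarmin S100a8, also a neutrophil marker, passed among the stroke comparisons only in the average over categories (1.24 ± 0.25, limma adjusted p = 0.0044), with 1.75 ± 0.44 in engrafted, 1.59 ± 0.44 in deficient and 0.37 ± 0.44 in wild-type dura. In deficient dura 0 genes of any of these 6 lists passed with stroke, where 0.25% of all probe sets did.

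**Figure D4:**
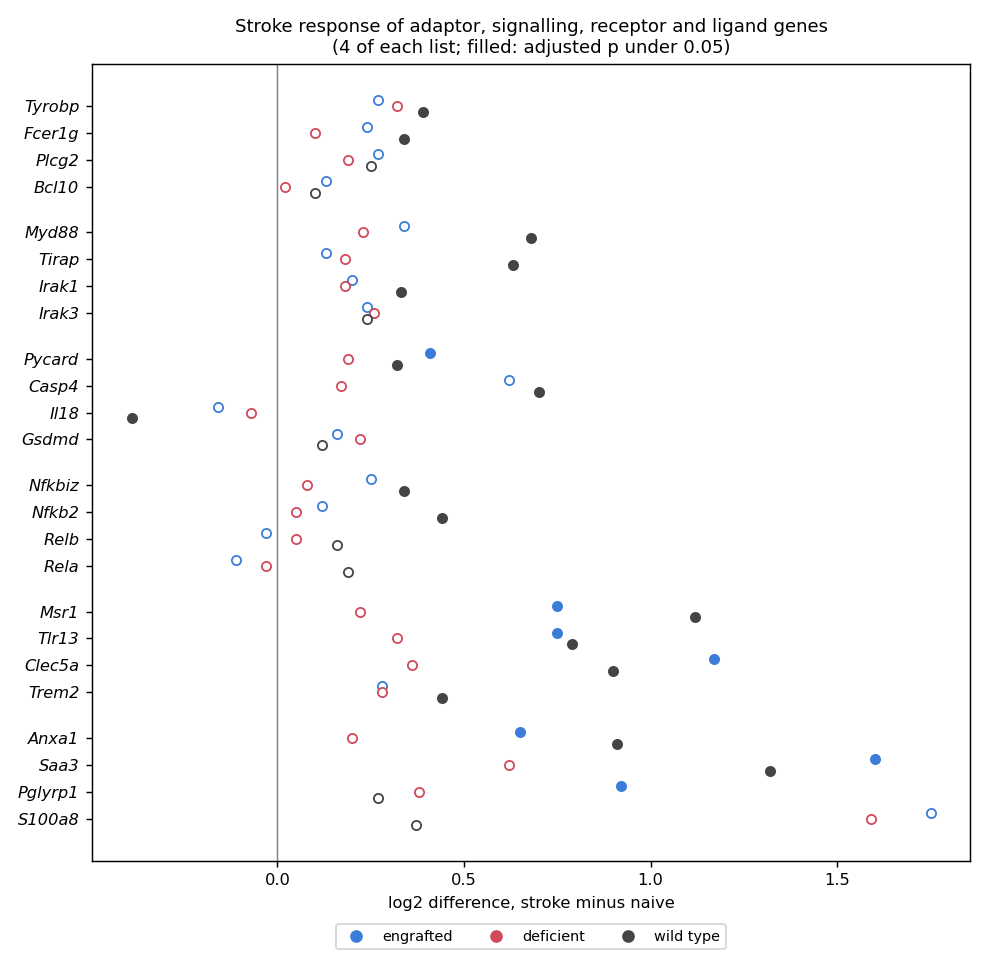
Log2 difference, stroke minus naive, in engrafted, deficient and wild-type dura, for the 4 genes of each partner list with the smallest p in the averaged stroke comparison; filled points have an adjusted p under 0.05. From top to bottom the blocks are adaptors, Toll-like receptor partners, inflammasome, NF-kappaB, other danger receptors and ligands. In deficient dura 0 points are filled, where 0.25% of all probe sets passed.

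Markers of the cells that carry these receptors were measured beside them. The summed level of 10 mature neutrophil markers (log2 of the added linear values) was 12.68 to 13.73 in stroke engrafted and 12.07 to 12.84 in naive engrafted dura, 12.23 to 12.41 and 11.72 to 12.02 in the deficient groups, and 12.53 to 13.42 and 12.07 to 12.64 in the wild-type groups. None of the 10 lay below the lower quartile on every array. With stroke in wild type 2 of 10 rose, where 6.24% of all probe sets did, with a list median of 0.32. The 2 were Mmp9 (1.14 ± 0.21) and Il1r2 (0.72 ± 0.13), both with a limma adjusted p of 0.00238. In engrafted dura 1 of 10 rose, Ly6g (1.75 ± 0.35, limma adjusted p = 0.0242), with a median of 1.10, where 0.878% of all probe sets rose. In deficient dura 0 of 10 rose, with a median of 0.54, where 0.25% of all probe sets passed. Deficient dura after stroke was lower than wild type in 1 of 10, Il1r2 (-0.72 ± 0.13, limma adjusted p = 0.00701). The list median there was -0.64, and 1.97% of all probe sets were lower.

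Stroke engrafted array 1, lowest in Clec4e and Cd14, had the lowest neutrophil sum of its group, 12.68, against 13.09 and 13.73. Stroke wild-type array 1 had a lower sum, 12.53, and a Clec4e level of 7.12. Monocyte and macrophage markers, 9 of 10 measured, summed to 13.81 to 14.09 in stroke engrafted and 13.62 to 13.83 in naive engrafted dura, 13.73 to 13.80 and 13.46 to 13.87 in the deficient groups, and 13.72 to 13.95 and 13.47 to 13.70 in the wild-type groups. With stroke 4 of 9 rose in wild type and 2 of 9 in engrafted dura, where 6.24% and 0.878% of all probe sets did. In deficient dura 0 of 9 rose, where 0.25% passed, and the list medians were 0.52, 0.32 and 0.20 in that order. Among the 4 was the integrin Itgam (0.81 ± 0.13, limma adjusted p = 0.00117). After stroke Itgam was the 1 of 9 lower in deficient than in wild-type dura (-0.63 ± 0.13, limma adjusted p = 0.0187). The list median there was -0.31, and 1.97% of all probe sets were lower. Granulocyte precursor markers, stroke first, summed to 12.56 to 13.83 and 11.26 to 12.34 in the engrafted groups. The deficient groups had 11.65 to 12.12 and 10.82 to 11.17, and the wild-type groups 11.93 to 13.14 and 11.89 to 12.23. Where the cells with these markers came from was not tested. Neuron markers, stroke first, summed to 13.77 to 14.23 and 14.04 to 14.17 in the engrafted groups. Their sums were 13.64 to 14.09 and 13.82 to 14.56 in deficient and 13.23 to 13.66 and 13.89 to 14.24 in wild-type groups. With stroke in wild type 4 of 9 neuron markers fell, where 4.63% of all probe sets did. The part of these cell markers in the receptor differences was not tested.

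**Figure D5:**
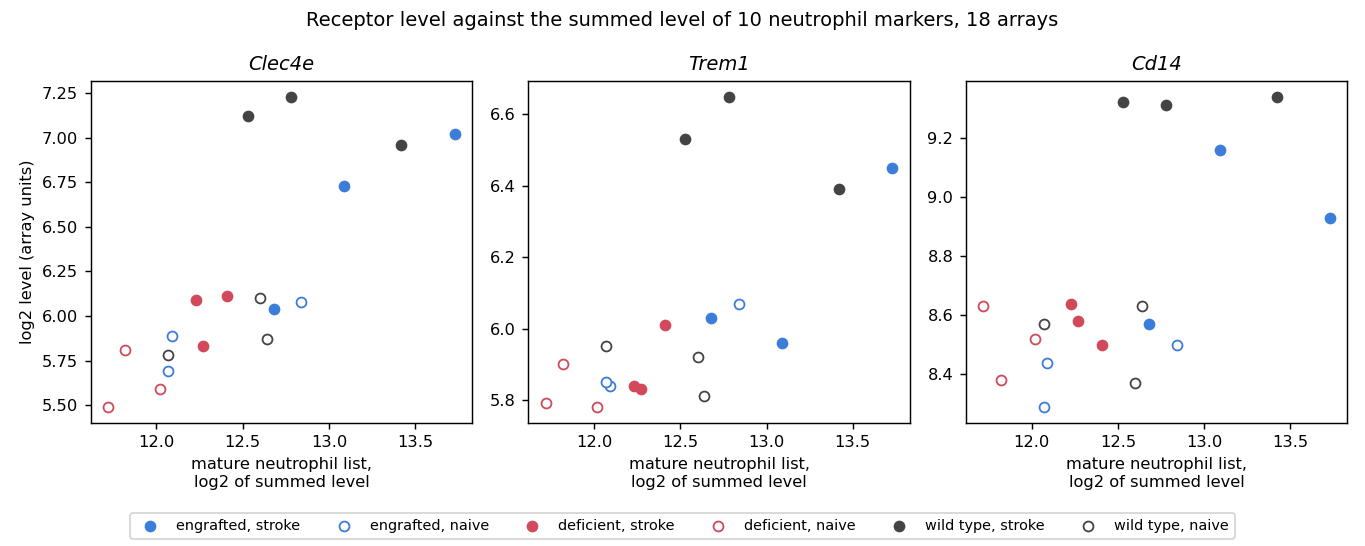
Log2 level of Clec4e, Trem1 and Cd14 on each of the 18 arrays against the log2 summed level of 10 mature neutrophil markers on the same array; filled points are stroke and open points naive, by category. Stroke engrafted array 1 has a sum of 12.68 with Clec4e at 6.04, and stroke wild-type array 1 a sum of 12.53 with Clec4e at 7.12.

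The genes whose pattern was most like that of the receptors were found by Pearson's r over the 18 arrays with the mean of the 8 genes, each scaled to unit SD. They were Ccr1, a chemokine receptor of myeloid cells (r = 0.94), Casp8 (0.94), Vwa5a (0.93), Lilr4b (0.93), Lilrb4a (0.91) and Casp4 (0.91). Lilr4b and Lilrb4a are near-identical paralogs whose probes could share signal, and all values come from the same arrays. The mean scaled level was -0.07, 0.79 and 0.68 in the stroke engrafted arrays, -0.33, -0.34 and -0.46 in stroke deficient and 1.23, 0.61 and 1.21 in stroke wild-type arrays.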

How the data were processed

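Dura from 18 mice was measured on 1 array each, in 6 groups taken from the sample titles. The values deposited by the authors are on a log2 scale. The submitters' processing notes list RMA, affy and R 3.0.0 with no role for each, and give no scan batch. Probe sets were named from the platform annotation: 21640 had 1 symbol and were tested, 1321 had several and 11799 were not named. No value was rescaled. The number of arrays limits the precision.

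Group means were estimated jointly over the 18 arrays by limma 3.58.1 (R 4.3.3), with 12 residual and 3.41 prior degrees of freedom, with 13 comparisons and Benjamini-Hochberg adjustment over all tested probe sets at 0.05; it was tested on simulated data. Figures used Python 3.11.15 and matplotlib 3.10.9. The members and lists were chosen with earlier results of these data known. Named genes were the members, up to 4 genes per partner list by p in the averaged stroke comparison, any partner that passed in a deficient or engrafted comparison, the 6 most similar genes, abundant markers and Ttr; Clec4n, Syk, Card9, Ly96, Irak2, Il1b, Casp1, Mmp9, Il1r2, Ly6g, Itgam and Sap130 lie outside it and were picked with their values known. Alternatives were each array left out, the 5 arrays lowest in Ttr left out, dim probe sets left out, a replicate block, a second quantile normalization, array weights, a trended and robust variance, all probe sets, only the compared groups, and tissue covariates. Same-numbered stroke and naive arrays did not deviate together throughout. Their correlations ran from -0.39 to 0.60, the highest for engrafted replicate 3, and the numbers were not taken as pairs. The NF-kappaB consensus searched was chosen after a narrower form of it had been seen to match in Tlr2.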

Additional observations from a re-analysis of the deposited data

Results flagged for a closer look

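Sap130, the nuclear protein that Clec4e binds, was the one gene among the members and partner lists whose stroke arrays all lay above the naive arrays in one category and all below them in another. It differed by -0.08 ± 0.05 with stroke in deficient and by 0.11 ± 0.05 in wild-type dura, so that the wild-type response exceeded the deficient one by 0.18 (limma adjusted p of the interaction 0.567). Such opposite movement without overlap was seen in 1 of 71 member and partner genes (1.41%) and in 1.62% of all probe sets.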

How the results depend on the processing

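The 66 called differences of single receptor and partner genes, 14 and 52, kept their sign in every alternative run. Of the uncalled receptor results, 31 values of 11 changed sign, all with a difference of at most 0.11 in size as reported. Without 1 array at a time, Tlr2 ranged from -0.24 to 0.04 in wild type, -0.05 to 0.08 in deficient and -0.04 to 0.06 on average, Tlr4 from -0.05 to 0.11 in wild type and -0.13 to 0.06 in engrafted, Nlrp3 from -0.03 to 0.18 in wild type, -0.08 to 0.07 in deficient and -0.00 to 0.07 on average, and Cd14 from -0.01 to 0.12 in deficient dura. With the choroid plexus and neuron covariates, Clec7a (-0.08), Tlr4 (-0.25) and Nlrp3 (-0.04) turned in wild type, Tlr2 in deficient dura (-0.03) and on average (-0.03), and Nlrp3 on average (-0.02). Without the 5 arrays lowest in Ttr, Tlr2 (-0.07) and Nlrp3 (0.07) turned in deficient dura, Tlr4 in engrafted dura (0.01) and on average (0.02); with array weights Nlrp3 turned in deficient dura (0.03). The cause was not tested.

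With dim probe sets left out, Clec4e, Clec4d, Trem1 and Nlrp3 were not in the fit, which leaves 1 receptor gene called in wild type, 2 in the averaged stroke comparison and 1 between deficient and wild-type dura after stroke. The receptor call of engrafted dura became 0 with the replicate block, only the compared groups, all probe sets or no arrays low in Ttr, 2 with the covariates, and 0 to 2 without 1 array. Without the arrays low in Ttr, 0 were called between deficient and wild-type dura after stroke, with fewer arrays. Array weights gave 1 call for stroke in deficient dura, 1 between engrafted and wild-type dura after stroke and 2 for the deficient interaction; the trended variance gave 1 between engrafted and wild-type dura and only the compared groups 1 for the deficient interaction. Without 1 array these counts ran from 0 to 2 for engrafted against wild type, 0 to 1 for engrafted against deficient and 0 to 1 for the deficient interaction, and stayed at 4 for stroke in wild type, 5 on average and 4 for deficient against wild type after stroke. In the other comparisons 0 were called throughout. The replicate block changed no other receptor count by over 1.5 times. Over all probe sets, calls for stroke in deficient dura numbered 54 as reported and 1326 with array weights. Those for stroke in engrafted dura numbered 241, and 33 with only the compared groups or 519 with the covariates. Those between deficient and wild-type dura after stroke numbered 565, and 95 without the arrays low in Ttr. Dim levels of Clec4e and Trem1 limit what can be seen of their lower groups.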
